A study of Mus musculus with 22 samples.

Results

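Neutrophil chemokines and colony stimulating factors were followed in the colonic mucosa of mice with dextran sodium sulfate (DSS) colitis. The set holds 7 of the 18194 genes with a probe set on the array, chosen by name: the chemokines Cxcl1, Cxcl2, Cxcl3 and Cxcl5 and the growth factors Csf1, Csf2 and Csf3. They are read by 12 probe sets annotated to 1 gene symbol each. The value of a gene is the log2 signal of its probe set with the largest interquartile range over the 22 arrays, where a difference of 1 is a doubling. Both genotypes carry floxed PPAR γ alleles. The labels of the arrays name no strain. Both C57BL/6 mice and a mixed FVB/C57BL/6 stock were part of the study. VC- mice lack the Cre transgene. In VC+ mice the Villin promoter drives Cre in the intestinal epithelium and so deletes PPAR γ there, while macrophages, fibroblasts and other cells keep the gene. DSS was given at 2.5% in the drinking water, and samples were taken at day 0, before DSS, and after 2 and 7 days. VC- mice had 3 arrays at day 0, 3 at day 2 and 4 at day 7. VC+ mice had 3 arrays at day 0, 5 at day 2 and 4 at day 7. The labels give 1 sample per array without saying that each came from a separate mouse, so p-values measure the spread between these samples. They give neither age nor sex.

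The 4 chemokines carry the amino acids Glu-Leu-Arg (ELR) before their first cysteines and act on the receptor Cxcr2, through which they draw neutrophils out of the blood and into injured tissue. Csf3 (G-CSF) drives the production and release of neutrophils in the bone marrow. Csf2 (GM-CSF) acts on granulocytes, macrophages and dendritic cells, and Csf1 (M-CSF) keeps monocytes and macrophages alive. In an inflamed colon epithelial cells, fibroblasts, endothelium and macrophages can all make these factors in answer to interleukin 1, tumor necrosis factor and bacterial products, in part through the transcription factor NF-kB.

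The chemokine genes form a cluster on chromosome 5 of the mouse genome (GRCm38.p6), with Cxcl5 at chr5:90759298-90761625, Cxcl3 at chr5:90786101-90788093, Cxcl1 at chr5:90891245-90893121 and Cxcl2 at chr5:90903899-90905938. Csf1 lies apart on chromosome 3 (chr3:107741048-107760469), and Csf2 (chr11:54247270-54249899) and Csf3 (chr11:98700183-98703631) lie on chromosome 11. Promoter windows of RefSeq, from 250 bases before to 50 after the start of the gene, matched 5 of the 7 genes: Cxcl1, Cxcl2, Cxcl3, Csf1 and Csf2. Stretches of 150 bases are shown because the 3 chemokine windows shared the run GGGAATTTCCC (in capitals), which holds the NF-kB consensus. It was the longest shared run that does so, and a run of 13 bases without the consensus, after the start site, was shared as well. Capitals in the Csf1 stretch mark its match to that consensus, and TATAAA in capitals in the Cxcl3 stretch is a TATA box. The stretches of Cxcl1 (chr5:90891115-90891264, + strand), Cxcl2 (chr5:90903769-90903918, + strand) and Cxcl3 (chr5:90785971-90786120, + strand) end shortly after the start site. The stretch of Csf1 (chr3:107760500-107760649, - strand) lies before it.
Cxcl1: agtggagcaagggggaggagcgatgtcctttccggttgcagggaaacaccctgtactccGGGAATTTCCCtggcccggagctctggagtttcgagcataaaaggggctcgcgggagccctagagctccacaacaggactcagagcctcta
Cxcl2: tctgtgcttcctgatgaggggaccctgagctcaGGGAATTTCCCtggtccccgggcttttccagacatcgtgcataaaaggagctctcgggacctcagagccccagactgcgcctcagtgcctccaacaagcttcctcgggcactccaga
Cxcl3: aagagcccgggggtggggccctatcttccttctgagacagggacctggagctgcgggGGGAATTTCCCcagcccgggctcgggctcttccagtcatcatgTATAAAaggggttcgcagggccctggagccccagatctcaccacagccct
Csf1: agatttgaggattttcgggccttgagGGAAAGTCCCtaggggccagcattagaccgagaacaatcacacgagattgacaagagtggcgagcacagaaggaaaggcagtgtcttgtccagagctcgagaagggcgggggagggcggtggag

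The NF-kB match began at -71 from the start site in Cxcl1, at -97 in Cxcl2 and at -73 in Cxcl3. Each of these windows also matched the consensus on the opposite strand, 1 base further along, so that both matches overlap within the shared run. That run was found in 14 of 32851 promoter windows (0.0426%), the 3 chemokines included. It was picked because these 3 windows share it, so its presence in them is no test. The NF-kB consensus, searched on both strands, was found in 2779 windows (8.46%). The consensus allows more than 1 letter at some positions and the run does not, so these shares cannot be set against each other. The match of Csf1 lay at -154, and the Csf2 window held none. TATAAA, searched on the strand of the gene, lay at -30 in Cxcl3 and in 8.32% of the 32851 windows. These windows leave out 1 chromosome, which holds none of the 7 genes. These are matches of letters in a window and not measured binding.

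Before the values, some arrays need a remark. Prss2, a trypsinogen of the exocrine pancreas, had a signal of 11.20 to 14.74 on 3 arrays (VC- day 0 replicate 3, VC- day 7 replicate 2 and VC+ day 7 replicate 4) and of 3.27 to 4.20 on the other 19. VC- day 7 replicate 2 also had the lowest level of colonic epithelial markers, 2.62 under the mean of all arrays, against 0.07 to 0.16 above it on the rest of its group. Xist, the noncoding RNA that coats an inactive X in females, had a signal over 8 on 6 of 14 arrays before day 7 and on 0 of 8 at day 7. Hoxb13, active in the most distal colon, was over 8 on 7 of the same 14 and on 1 of the 8. Pparg, the targeted gene, had a signal of 9.58 to 9.63 in VC- and 8.50 to 8.83 in VC+ mice at day 0 and of 9.87 to 10.96 and 6.87 to 9.54 at day 2, with no overlap on either day. At day 7 its ranges of 7.39 to 9.82 and 6.26 to 10.35 overlapped. The changes of the 7 genes were also computed without the 3 arrays with Prss2 signal and on the arrays without Xist signal. Receptors and marker lists were fitted over all arrays only.

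Without DSS and after 2 days of DSS the signals of all 7 genes were flat. Over the 14 arrays of both genotypes Cxcl1 had a lowest signal of 3.54 and a highest of 3.78, Cxcl2 of 2.57 and 2.67, Cxcl3 of 3.67 and 4.14 and Cxcl5 of 3.01 and 3.21. Csf1 had a signal of 5.26 to 5.89, Csf2 of 2.33 to 2.63 and Csf3 of 2.56 to 2.75. The group means of Cxcl2 at days 0 and 2 lay at the 29.0th to 30.5th percentile of all values of the table, of which 41.7% were under 3. These are low signals in a table of GC-RMA values, which are corrected for background. Absence of the transcript cannot be read from them, and the size of any later fold change depends on where the correction sets such low values.

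**Figure D1:**
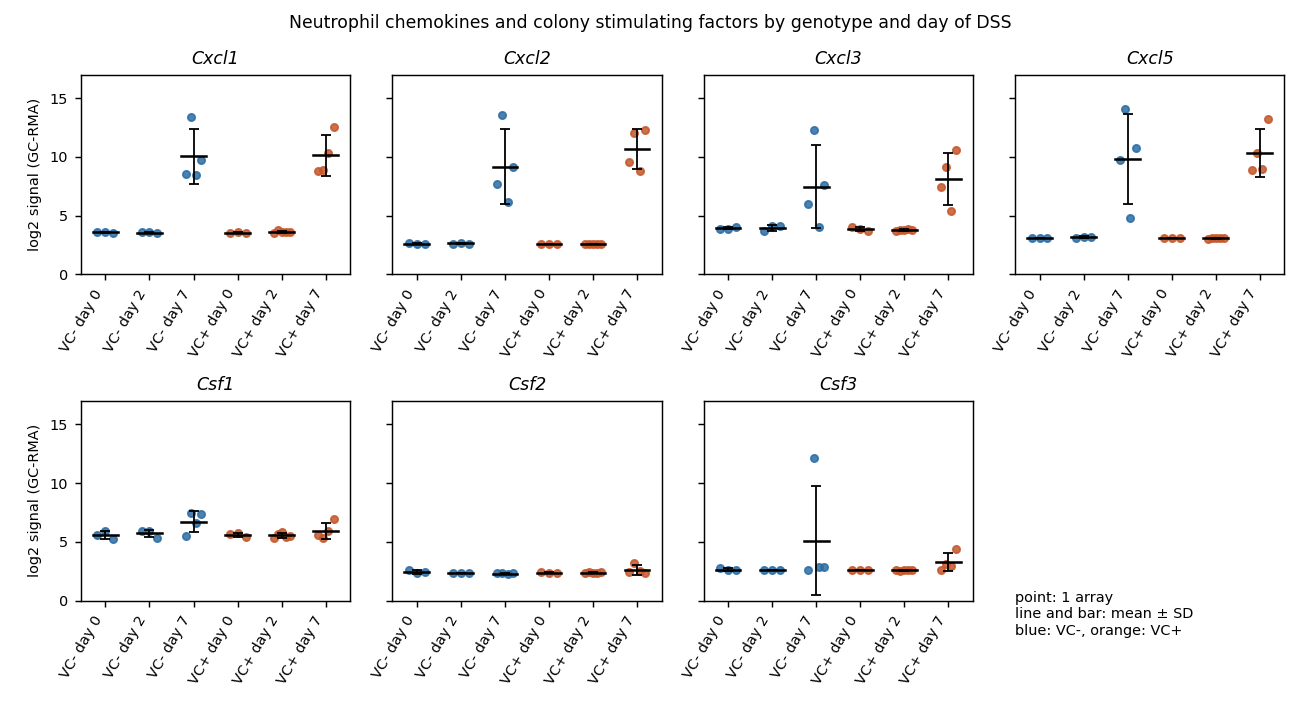
Log2 signal (vertical axis) of each gene on all 22 arrays, in the 6 groups of genotype and day (horizontal axis). Each point is 1 array, with the group mean as a line and the SD as a bar. At day 7 the chemokines lie above the flat level of days 0 and 2 on all 8 arrays, or on 7 of 8 for Cxcl3, and Csf3 stands far above it on 1 VC- array, at 12.11.

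By day 7 Cxcl1, Cxcl2 and Cxcl5 had risen in both genotypes, and every one of the 8 arrays of day 7 lay above every one of the 14 earlier arrays for each of these 3 genes. Among all genes tested 124 of 9097 (1.36%) had day 7 arrays that separate in this way. Cxcl3 had higher means at day 7 but did not pass the test against day 0, nor did Csf1 or Csf2, and Csf3 was high on a single VC- array. P-values come from limma, fitted to all 22 arrays and adjusted by Benjamini-Hochberg over the 9097 genes that passed a filter on variance. Csf2 and Csf3 did not pass it, and their p-values are from the same model fitted to all genes.

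Cxcl1, known as KC in the mouse, had a signal of 8.55, 13.40, 8.41 and 9.76 on VC- day 7 replicates 1 to 4 and of 8.75, 8.87, 10.32 and 12.54 on VC+ day 7 replicates 1 to 4. VC- replicate 2 and VC+ replicate 4 were the high arrays, and the genotypes overlapped. From a day 0 mean of 3.57 ± 0.03 (SD, n = 3), VC- mice reached 10.03 ± 2.33 (SD, n = 4) by day 7, and the log2 fold change was 6.46 (SE 0.90, adjusted p = 0.000521, limma) or 88.0-fold. VC+ mice began with 3.55 ± 0.01 (SD, n = 3) and had 10.12 ± 1.76 (SD, n = 4) by day 7, and the log2 fold change was 6.57 (SE 0.90, adjusted p = 0.000659, limma). The change ranked 9th and 12th from the top of the 9097 genes in VC- and VC+ mice.

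Cxcl2, known as MIP-2, had a signal of 7.72, 13.56, 6.19 and 9.14 on the 4 VC- arrays and of 9.55, 12.02, 8.81 and 12.24 on the 4 VC+ arrays of day 7. The lowest VC+ array lay above 2 of the VC- arrays, and the highest signal of all was again VC- replicate 2. Cxcl2 rose by 6.54 on the log2 scale (SE 1.11, adjusted p = 0.00276, limma) in VC- mice and by 8.07 (SE 1.11, adjusted p = 0.000659, limma) in VC+ mice, from means of 2.61 and 2.59 at day 0. Its change ranked 8th in VC- and 3rd in VC+ mice among the changes upward.

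Cxcl5, known as LIX, which epithelial cells can make, had a signal of 9.75, 14.07, 4.83 and 10.72 in VC- mice and of 8.86, 10.28, 8.996 and 13.26 in VC+ mice. VC- replicate 3 was far below the rest but still above the 14 earlier arrays. The gene rose by 6.74 (SE 1.33, adjusted p = 0.00675, limma) and by 7.28 (SE 1.33, adjusted p = 0.00722, limma) in VC- and VC+ mice. Its change ranked 7th in either genotype.

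Cxcl3, the close relative of Cxcl2 in the cluster, had a signal of 5.97, 12.26, 4.00 and 7.57 in VC- mice and of 7.39, 9.13, 5.37 and 10.54 in VC+ mice. On VC- replicate 3 it stayed within the range of days 0 and 2, and the other 7 arrays lay above that range. The log2 fold change against day 0 was 3.52 (SE 1.28, adjusted p = 0.0763, limma) in VC- and 4.25 (SE 1.28, adjusted p = 0.115, limma) in VC+ mice, neither past the threshold of 0.05. Against day 2, with 5 arrays in the earlier group, Cxcl3 was higher by 4.32 in VC+ mice (adjusted p = 0.0272, limma), and in VC- mice the difference was 3.49 (adjusted p = 0.0942, limma). The VC+ call was lost without the filter (adjusted p = 0.0616), on all probe sets (0.0791), with Hoxb13 as a covariate (0.0692), on arrays without Xist signal (0.24) and on leaving out VC+ day 2 replicate 1, 4 or 5 (0.0501, 0.0548 and 0.0557) or VC+ day 7 replicate 1, 2 or 4 (0.0605, 0.0801 and 0.114), all by limma.

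None of the colony stimulating factors passed the test at day 7. Csf1 had a signal of 5.51, 7.42, 6.56 and 7.39 in VC- mice and of 5.56, 5.36, 5.93 and 6.93 in VC+ mice at day 7, so that 5 of 8 arrays lay above the earlier ones. Its log2 fold change was 1.14 (SE 0.39, adjusted p = 0.0646, limma) in VC- and 0.33 (SE 0.39, adjusted p = 0.786, limma) in VC+ mice.

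Csf3 had a signal of 2.60, 12.11, 2.82 and 2.90 in VC- mice and of 2.63, 3.08, 2.95 and 4.42 in VC+ mice. It was high on VC- replicate 2 alone, with VC+ replicate 4 a distant second. Of the 8 arrays 6 lay above all earlier ones, whose highest signal was 2.75. The log2 fold change was 2.47 (SE 1.53, adjusted p = 0.296, limma without the filter) in VC- and 0.69 (SE 1.53, adjusted p = 0.999, limma without the filter) in VC+ mice. Without VC- day 7 replicate 2 the VC- value was 0.13.

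Csf2 had a signal of 2.35, 2.32, 2.23 and 2.31 in VC- mice and of 2.39, 3.17, 2.51 and 2.34 in VC+ mice. Only VC+ replicate 2 was above the earlier arrays. The log2 fold change was -0.15 (adjusted p = 0.452, limma without the filter) in VC- mice and 0.24 (adjusted p = 0.739, limma without the filter) in VC+ mice, or 0.04 without VC+ replicate 2.

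**Figure D2:**
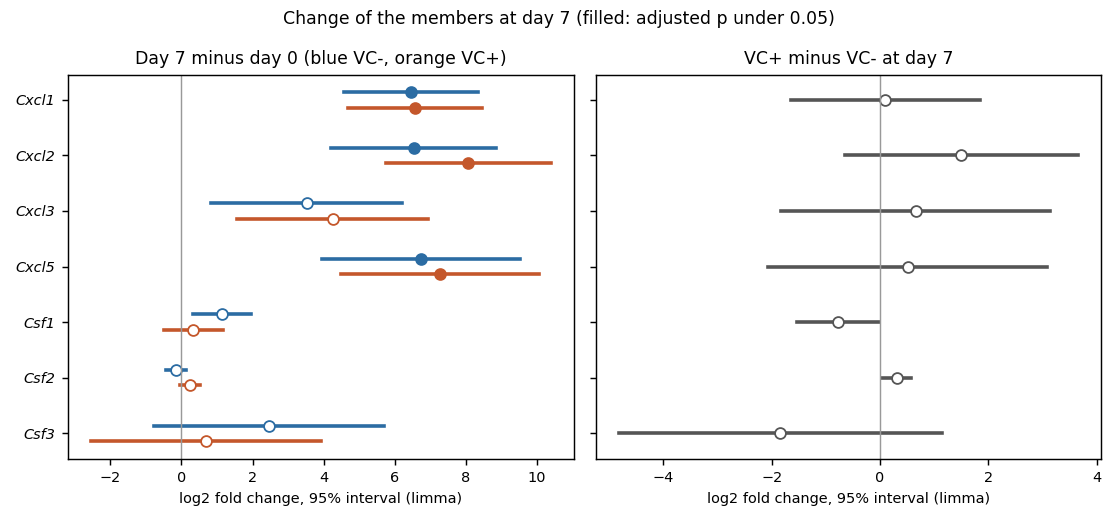
Log2 fold change with its 95% interval from limma (horizontal axes) for the 7 genes: day 7 minus day 0 in VC- (blue) and VC+ mice (orange) on the left, and VC+ minus VC- at day 7 on the right. Filled points have an adjusted p under 0.05. Cxcl1, Cxcl2 and Cxcl5 are filled in both genotypes, at 6.46 to 8.07, and no point of the genotype comparison is filled.

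In counts, 3 of the 7 genes (Cxcl1, Cxcl2 and Cxcl5) were higher and 0 lower at day 7 than at day 0 in VC- mice, where 503 of 9097 genes (5.53%) were higher and 460 (5.06%) lower. The same 3 were higher and 0 lower in VC+ mice, against 120 genes (1.32%) higher and 39 (0.429%) lower. Against day 2, the 3 genes were higher in VC- mice, with log2 fold changes of 6.47, 6.52 and 6.69, of which that of Cxcl5 was lost without VC- day 2 replicate 2 (adjusted p = 0.0531, limma) or 3 (0.0605), and all 4 chemokines in VC+ mice, with 6.51, 8.06, 4.32 and 7.28. Over all genes 314 (3.45%) and 433 (4.76%) were higher than at day 2. In VC- mice all day 7 arrays lay above all day 0 arrays for Cxcl1, Cxcl2 and Cxcl5, as for 784 of 9097 genes (8.62%), and in VC+ mice for these 3 and Cxcl3, as for 874 genes (9.61%). Csf3, which is outside the 9097 genes, separated in VC+ mice as well. The comparisons with day 0 and day 2 share the arrays of day 7. In order of level, groups of days 0 and 2 that differed in day alone or genotype alone overlapped for every gene, and so did the day 7 groups of the 2 genotypes.

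At 2 days of DSS none of the 7 genes passed the test. The fitted changes from day 0 were -0.10 to 0.13 in VC- and -0.07 to 0.06 in VC+ mice, with an adjusted p of 1 for each gene (limma). Over all genes 1 of 9097 (0.011%) in VC- and 5 (0.055%) in VC+ mice differed in either direction, and 417 and 598 had an unadjusted p under 0.05. The model pools the spread of all groups, so the wide day 7 values set the error: for Cxcl1 the 95% interval was -2.03 to 2.00 in VC- mice, although the SDs at days 0 and 2 were 0.03 and 0.01. Fitted on the arrays of days 0 and 2 of a genotype alone, the 7 genes did not pass the threshold either.

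The 3 calls at day 7 against day 0 held in both genotypes whichever of the 22 arrays was left out. Without VC- day 7 replicate 2 the VC- changes were 5.34, 5.07 and 5.33 for Cxcl1, Cxcl2 and Cxcl5, and without VC- day 7 replicate 3 they were 7.00, 7.53 and 8.41. Without VC+ day 7 replicate 4 the VC+ changes were 5.76, 7.54 and 6.31. Leaving out the 3 arrays with Prss2 signal gave 5.32, 5.07 and 5.32 in VC- mice, and with Hoxb13 as a covariate they were 6.56, 6.64 and 7.13 in VC- and 6.62, 8.12 and 7.48 in VC+ mice, each past the threshold. Leaving out the arrays with Prss2 signal also brought Cxcl3 past it in VC+ mice (3.44, adjusted p = 0.0262, limma). For Cxcl3 in VC- mice leaving out 1 array of day 7 gave from 1.92 (replicate 2, adjusted p = 0.197) to 4.67 (replicate 3, adjusted p = 0.0341), and without replicate 1 both Cxcl3 (4.02, adjusted p = 0.0362) and Csf1 (1.55, adjusted p = 0.0036) passed, all by limma. Without replicate 1 the genes called over the whole array in VC- mice also went from 963 to 2599. Csf1 in VC- mice also passed without VC+ day 7 replicate 4 (1.14, adjusted p = 0.0435, limma). In VC+ mice Cxcl3 passed without replicate 3 (5.17, adjusted p = 0.0373, limma) and, with its value unmoved at 4.25, without VC- day 7 replicate 2 (adjusted p = 0.00717, limma), and Csf1 was 0.00 without replicate 4.

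Some settings ended calls. Fitted on the 7 arrays of VC- days 0 and 7 alone, the adjusted p of limma was 0.133, 0.189 and 0.236 for Cxcl1, Cxcl2 and Cxcl5, with the same fold changes. On the arrays without Xist signal alone the fold changes were 6.47, 6.54 and 6.74 in VC- and 6.56, 8.06 and 7.27 in VC+ mice, close to those over all arrays, while Cxcl1 in VC- mice (adjusted p = 0.0477, limma) was the only call left, on fewer earlier arrays. The share of sex in the changes beyond these values was not tested.

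Whether deletion of PPAR γ in the epithelium altered these factors was asked by comparing VC+ with VC- mice at each day. At day 7 Cxcl2 was 1.50 higher in VC+ mice (95% interval -0.65 to 3.65, adjusted p = 0.447, limma), Cxcl3 0.66, Cxcl5 0.51 and Cxcl1 0.09 higher, and none passed the threshold. The interval of Cxcl1 ran from -1.65 to 1.84, so a difference of over 3-fold in either direction cannot be told from none at this number of arrays. Csf1 differed by -0.78 (95% interval -1.54 to -0.01, unadjusted p = 0.0467, adjusted p = 0.348, limma), being lower in VC+ mice, and Csf3 by -1.84 (adjusted p = 0.468). Csf2 differed by 0.30 (unadjusted p = 0.0269, adjusted p = 0.436), or 0.11 without VC+ replicate 2. Over all genes 0 of 9097 (0%) differed at day 7 with limma, and 1291 had an unadjusted p under 0.05.

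2 settings moved genes past the threshold between the genotypes. With limma's array weights, which give less weight to arrays far from their group, Cxcl2 was 2.22 higher (adjusted p = 0.0298) and Csf1 lower by a log2 difference of -1.34 (adjusted p = 0.00902) in VC+ mice. Without VC- day 7 replicate 1 Csf1 differed by -1.18 (adjusted p = 0.0245, limma). Calls rose over the whole array in both settings. Of 9097 genes 1592 differed with array weights and 1213 without VC- day 7 replicate 1, against 0 in the main fit. Cxcl1, Cxcl3, Cxcl5 and Csf3 changed the sign of their genotype difference when single day 7 arrays were left out: Cxcl1 ran from -0.72 (without VC+ replicate 4) to 1.21 (without VC- replicate 2), and Csf3 was 0.50 without VC- replicate 2. Without VC- replicate 3 or VC- replicate 2, in that order, Cxcl2 differed by 0.51 or 2.97, Cxcl3 by -0.49 or 2.26 and Cxcl5 by -1.16 or 1.92. Without the 3 arrays with Prss2 signal Cxcl2 differed by 2.44 (unadjusted p = 0.00187, adjusted p = 0.659, limma), Cxcl1 by 0.41, Cxcl3 by 1.45, Cxcl5 by 0.95 and Csf3 by 0.11, none past the threshold. At day 0 the differences were -0.08 to 0.03 and at day 2 -0.18 to 0.06, with an adjusted p of 0.912 or more (limma). On those days 1 of 9097 genes (0.011%) and 4 (0.044%) differed over all genes, and 600 and 1122 had an unadjusted p under 0.05.

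The test of unequal response, the change from day 0 in VC+ mice minus that in VC- mice, passed for 0 of the 7 genes at either day. At day 7 it was 1.53 for Cxcl2 (95% interval -1.76 to 4.82, adjusted p = 0.745, limma), 0.11 for Cxcl1, 0.73 for Cxcl3, 0.54 for Cxcl5 and -0.81 for Csf1 (adjusted p = 0.653). Over all genes 2 of 9097 (0.022%) passed at day 2 and 0 (0%) at day 7, and 588 and 771 had an unadjusted p under 0.05. A rise that passed in one genotype and not in the other, as that of Cxcl3 against day 2, was thus not shown to differ between them.

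The chemokine signals spread over wider ranges among the arrays of day 7 than the difference between the genotype means. VC- replicate 2 had the highest signal of Cxcl1, Cxcl2, Cxcl3, Cxcl5, Csf1 and Csf3, and VC+ replicate 4 was second for these except Csf1, where it ranked 3rd. VC- replicate 3 was the lowest of the 8 for all 4 chemokines. The day 7 range was 4.99 for Cxcl1, 7.37 for Cxcl2, 8.26 for Cxcl3 and 9.24 for Cxcl5, against 0.24, 0.10, 0.47 and 0.19 over the 14 earlier arrays.

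**Figure D3:**
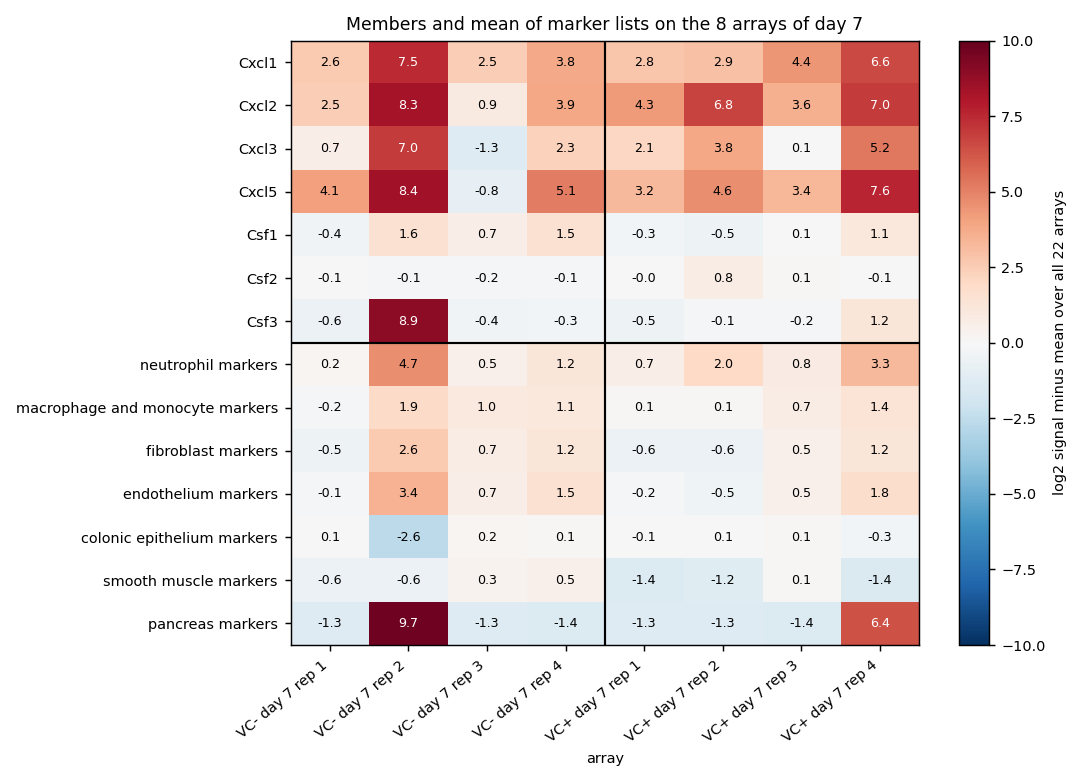
The 8 arrays of day 7 (columns) for the 7 genes and for the mean of each list of cell type markers (rows). Color and number give the log2 signal minus the mean over all 22 arrays. VC- replicate 2 and VC+ replicate 4 are the arrays with the highest chemokine signals, the highest neutrophil markers (4.7 and 3.3) and pancreas signal (9.7 and 6.4). Both also have the highest macrophage, fibroblast and endothelial markers.

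The 4 chemokines followed each other across the arrays of day 7 to unequal degrees. Over these 8 arrays, with 21 pairs of genes compared, Cxcl2 and Cxcl3 had Pearson's r = 0.967 (exact permutation p = 0.000397, adjusted 0.00833) and Spearman's rho = 0.952 (exact permutation p = 0.00114, adjusted 0.024), and r was 0.921 without the 2 arrays farthest from the median of Cxcl2. Other pairs likewise lost the 2 arrays farthest from the median of a gene of the pair. With Cxcl1 these were VC- replicate 2 and VC+ replicate 4, and in all other pairs given VC- replicates 2 and 3. Values without 2 arrays in pairs with Cxcl1 therefore cannot be set against those of the other pairs. Cxcl3 and Cxcl5 had r = 0.916 (exact permutation p = 0.00129, adjusted 0.0135) and rho = 0.905 (exact permutation p = 0.00456, adjusted 0.0479), with r = 0.819 without 2 arrays. Cxcl1 and Cxcl2 had r = 0.757 (exact permutation p = 0.0368, adjusted 0.0726) and rho = 0.786 (exact permutation p = 0.0279, adjusted 0.0838), and r fell to 0.222 without 2 arrays, so that relation rests on them. Cxcl1 and Cxcl5 had r = 0.820 (exact permutation p = 0.00918, adjusted 0.0275) and rho = 0.810 (exact permutation p = 0.0218, adjusted 0.0838), with r = 0.420 without 2 arrays. Cxcl1 and Cxcl3 had r = 0.790 (exact permutation p = 0.0305, adjusted 0.0712) and rho = 0.738 (exact permutation p = 0.0458, adjusted 0.0875), and r was 0.0624 without 2 arrays, so that relation rests on them too. Cxcl2 and Cxcl5 had r = 0.878 (exact permutation p = 0.00575, adjusted 0.0275) and rho = 0.786 (exact permutation p = 0.0279, adjusted 0.0838), with r = 0.659 without 2 arrays. Each genotype has only 4 such arrays, too few for values of its own. Csf1 and Cxcl2 had r = 0.280 (exact permutation p = 0.498, adjusted 0.615) and rho = 0.333 (exact permutation p = 0.428, adjusted 0.562), with r = 0.138 without 2 arrays. With Cxcl1, Cxcl2, Cxcl3 and Cxcl5, Csf3 had r = 0.806, 0.678, 0.742 and 0.651 (exact permutation, adjusted p = 0.0275, 0.0275, 0.0275 and 0.035). Its rho was 0.857, 0.786, 0.738 and 0.738 (exact permutation, adjusted p = 0.075, 0.0838, 0.0875 and 0.0875). Without 2 arrays r was 0.466, 0.752, 0.785 and 0.913. Apart from VC- replicate 2, Csf3 had signals of 2.60 to 4.42.

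Over all 22 arrays the gene most like Cxcl1 was Il6, the acute inflammatory cytokine (Pearson's r = 0.999, and Spearman's rho = 0.976 over the 8 arrays of day 7), followed by Cemip, a hyaluronan binding protein (0.990), and Socs3, a feedback inhibitor of cytokine signaling (0.985). The genes most like Cxcl2 were Il1b (0.988) and the neutrophil calprotectin subunits S100a8 (0.987) and S100a9 (0.984). Cxcl3 was closest to the C-type lectin receptor Clec4e (0.979), Il1a (0.965) and the decoy receptor Il1r2 (0.960), and Cxcl5 to Cxcl2 (0.978), Il1b (0.978) and Il6 (0.969). For the chemokines the arrays fall into day 7 and the rest, and so values over 22 arrays mostly restate that split. Csf1 was closest to Nos3, the nitric oxide synthase of endothelium (0.949), Hdac9 (0.941) and Cd300a (0.922). For Csf3 the closest were Zfp423 (0.997), Cpeb1 (0.996) and Slc14a1 (0.996), with a Spearman's rho of 0.381 to 0.429 over the day 7 arrays, since VC- day 7 replicate 2 carries the likeness. For Csf2 they were Cpn2 (0.921), B930095G15Rik (0.915) and 2810039B14Rik (0.912), at signals near the floor.

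Some receptors of these factors rose as well. Of the 8 listed receptor genes 7 had a probe set and 5 passed the filter, of which 4 were higher in VC- and 1 in VC+ mice at day 7 against day 0 (5.53% and 1.32% of all genes tested). The median change over the tested receptors was 1.95 and 1.13, against -0.09 and -0.02 over all genes tested. A filter on variance over all arrays favors genes that move at day 7. Over all 7 receptors with a probe set the median was 1.41 and 1.12. Csf2rb, the common beta chain of the receptors for GM-CSF, interleukin 3 and interleukin 5, had a highest signal of 4.09 over the 14 arrays of days 0 and 2 and a lowest of 4.10, a median of 5.88 and a highest of 8.84 over the 8 arrays of day 7. It rose by 3.16 (adjusted p = 0.0231, limma) in VC- and by 3.26 (adjusted p = 0.0404, limma) in VC+ mice. Csf2rb2, the beta chain particular to interleukin 3 in mice, rose by 2.48 (adjusted p = 0.0224, limma) in VC- mice, and its change in VC+ mice was 1.86 (adjusted p = 0.152, limma). The 2 genes are closely similar copies, so that a probe may read both. Ackr1, the chemokine binding receptor of venules, rose by 1.95 (adjusted p = 0.0306, limma) in VC- mice, with 1.12 (adjusted p = 0.354, limma) in VC+ mice.

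Csf1r, the receptor of Csf1 and a macrophage marker, rose by 1.41 (adjusted p = 0.0369, limma) in VC- mice, with 1.13 (adjusted p = 0.195, limma) in VC+ mice, and Csf2ra, the alpha chain for GM-CSF, had changes of 0.61 and 0.38 that did not pass. Cxcr2, the receptor through which the chemokines draw neutrophils, did not pass the filter. Its signal was 4.11 on VC- day 7 replicate 2 and 3.87 on VC+ day 7 replicate 4, the 2 arrays with the highest chemokine signals, and 2.65 to 2.80 on the other 20. Csf3r, the G-CSF receptor of neutrophils, did not pass the filter either, with a highest signal of 6.06 at day 7 and of 4.19 before. Of the other ligands listed, Ppbp, a further ELR chemokine, reached 4.01 on VC- day 7 replicate 2 alone, and Cxcl15 and Il34, the second ligand of Csf1r, stayed at or under 2.31 and 2.70 on all arrays.

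**Figure D4:**
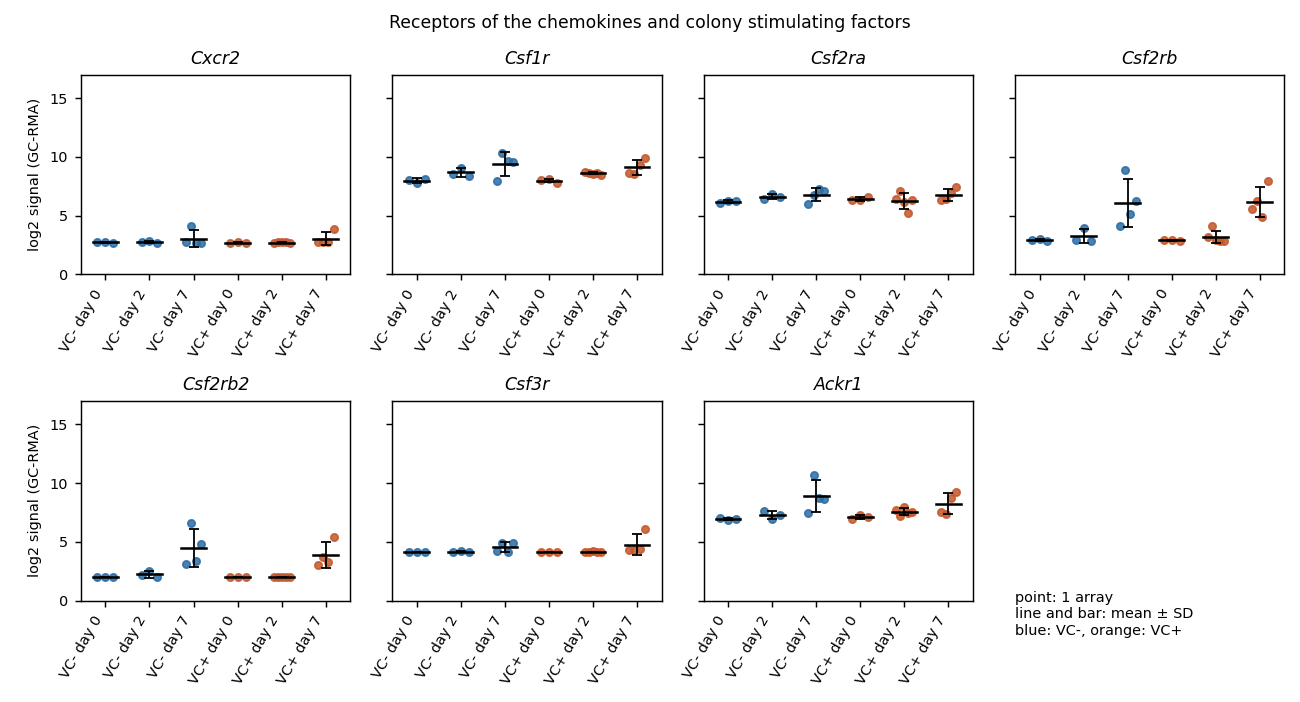
Log2 signal (vertical axis) of the 7 receptor genes with a probe set on all 22 arrays, in the 6 groups of genotype and day (horizontal axis). Each point is 1 array, with the group mean as a line and the SD as a bar. All day 7 arrays of Csf2rb and Csf2rb2 lie above those of day 0, and Cxcr2 stands out on 2 arrays, at 4.11 and 3.87.

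Among 26 inducers and regulators of these genes 23 had a probe set and 18 passed the filter. Of these 12 rose in VC- and 4 in VC+ mice at day 7, and none fell, with medians of 1.42 and 1.10. Over all 23 with a probe set the medians were 1.27 and 1.08. Over all genes 5.53% were higher in VC- and 1.32% in VC+ mice, and the same shares stand behind the counts of markers against day 0 that follow. Il6 rose by 7.33 (adjusted p = 0.000441, limma) in VC- and 7.63 (adjusted p = 0.000242, limma) in VC+ mice, and Il1b, which induces these chemokines, by 5.76 (adjusted p = 0.00216, limma) and 7.20 (adjusted p = 0.00052, limma). The transcription factor Cebpd rose by 3.33 and 2.44, and the factor Cebpb by 3.73 in VC- mice, with 3.02 (adjusted p = 0.0835, limma) in VC+ mice. Il17a, Tnf and Il1a did not pass the filter. The mean of Il1a went from 2.135 at day 0 to 4.10 at day 7 in VC- mice and from 2.13 to 5.27 in VC+ mice. Its SDs at day 7 were 3.03 and 2.31. Tnf went from 2.43 to 2.68 in VC- and from 2.26 to 3.59 in VC+ mice, and Il17a from 3.07 to 3.37 and from 2.86 to 3.17. Zfp36, which destabilizes messengers of this kind, rose by 1.08 and 1.37.

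Lists of cell type markers were read on the same arrays. In this bulk tissue fewer cells of a type and less RNA per cell cannot be told apart. Of 18 neutrophil markers 15 had a probe set and 6 passed the filter, of which 5 rose in VC- and 4 in VC+ mice. The median change over these 6 was 4.365 in VC- and 5.09 in VC+ mice, and over all 15 it was 1.88 and 0.97. The list also holds the receptors Cxcr2 and Csf3r, and the macrophage list holds Csf1r. In the neutrophil list S100a8 rose by 7.97 and 9.16, S100a9 by 8.28 and 9.31, the formyl peptide receptor Fpr2 by 4.19 and 5.73 and the lectin receptor Clec4d by 4.48 and 4.45. The granule enzymes Mpo and Elane, named after their values were seen, had group means of 2.11 to 2.14 and of 2.31 to 2.35 in all 6 groups. The mean of the neutrophil list, relative to all arrays, was -1.03 to -0.67 over days 0 and 2, and at day 7 it was 0.22, 4.68, 0.50 and 1.24 in VC- and 0.66, 1.99, 0.83 and 3.28 in VC+ mice. It was highest on VC- replicate 2 and VC+ replicate 4, as were the chemokines. Of 10 macrophage and monocyte markers tested, 8 passed upward in VC- mice, among them the lysosomal Cd68 (3.32), the complement gene C1qc (2.34) and the endotoxin receptor Cd14 (2.28). In VC+ mice Cd68 (2.90) and Cd14 (2.31) did. The list had a mean of -0.95 to 0.22 over days 0 and 2 and of -0.20 to 1.88 at day 7.

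Of 9 fibroblast markers 2 rose in VC- mice (Col1a1 by 2.24 and Pdgfrb by 2.42) and 0 in VC+ mice, with list means of -0.99 to 0.49 before and -0.59 to 2.64 at day 7. Of 7 tested endothelial markers 3 rose in VC- mice, with Selp, the adhesion molecule P-selectin, at 4.82, Icam1 at 2.47 and Tie1 at 1.89, and 0 in VC+ mice, with list means of -0.76 to -0.19 before and -0.47 to 3.45 at day 7. Of 7 tested markers of colonic epithelium 1, the anion exchanger Slc26a3, fell in VC- mice (log2 fold change -2.88, adjusted p = 0.0452, limma) and 0 in VC+ mice. The epithelial list ran from -0.27 to 0.56 before and, leaving VC- replicate 2 at -2.62 aside, from -0.30 to 0.16 at day 7. Of 6 smooth muscle markers 0 passed the test against day 0 in either genotype. Against day 2, where all 4 chemokines were higher in VC+ mice, all 6 were lower in VC+ mice, with a median of -1.71, and 0 in VC- mice. The smooth muscle list ran from -0.82 to 1.00 over days 0 and 2 and from -1.43 to 0.49 at day 7. In VC+ mice it ran from -0.41 to 0.28 at day 0 and, higher, from 0.24 to 1.00 at day 2. No pancreatic marker passed the filter. The part of these cell types in the chemokine changes was not tested. Cxcl1, Cxcl2 and Cxcl5 were at 8.41, 6.19 and 4.83 or higher on the 6 day 7 arrays with no pancreas signal, above every earlier array.

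Probe sets of 1 gene did not always run together. Cxcl1 has 3 of them. The second rose by 6.69 (adjusted p = 0.00663, limma on all probe sets) in VC- and 6.88 (adjusted p = 0.00908) in VC+ mice, close to the main one, and the third had changes of 2.75 and 2.20 that did not pass. Of the 4 probe sets of Csf1 the other 3 had changes of 0.11 to 0.73 in VC- and of -0.03 to 0.39 in VC+ mice, none past the threshold. Cxcl2, Cxcl3, Cxcl5, Csf2 and Csf3 have 1 probe set each, so their values had no such comparison.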

How the data were processed

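RNA of colonic mucosa was hybridized to 22 Affymetrix mouse expression arrays, 1 per sample. Per the study's methods, the authors processed the arrays in R (2.10.1 in the submitters' notes) with GC-RMA, and the deposited values are log2 signals corrected for background and normalized across arrays. Their range was 0.58 to 16.76, the array medians were 3.41 to 3.55, and no arrays were identical. Precision is limited by how many arrays each group has. The table held 45101 probe sets, of which 34958 carry 1 gene symbol. Those with several symbols (932) or not listed in the annotation (9211) were left out.

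Each gene was read by its probe set of widest interquartile range, and the upper 50% of 18194 genes by that range was tested. limma 3.58.1 in R 4.3.3 was fitted to 6 group means, with 11 comparisons. Two-sided p-values received the Benjamini-Hochberg adjustment in every comparison separately, at a threshold of 0.05. The script was tested on simulated data. Correlations used exact permutation tests (SciPy 1.17.1). Lists of receptors, other ligands, inducers and cell type markers were written from general knowledge. The text names the 7 genes, the receptors and other ligands, up to 4 called genes of each list with the largest change, and the 3 genes most like each of the 7. In addition, Zfp36, Il17a, Tnf and Il1a were named after their values were seen. The members and the lists were chosen with earlier results of these data known, and describe these samples only.

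The alternatives were no variance filter, all probe sets, the probe set with the highest mean, quantile normalization, a trended prior, array weights, only the groups compared, the replicate number as a block, Hoxb13 as a covariate, leaving out arrays with Prss2 or Xist signal over 8, and leaving out each array. Samples with the same replicate number were not treated as pairs: 18 of 48 such pairs correlated over 0.1 after group means were removed, against 36 of 152 others.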

Additional observations from a re-analysis of the deposited data

Results flagged for a closer look

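In 39 sets of values, 4 had an array that lay far from the others by Dixon's criterion, which chance gives in about 1 of 20. Each set was a signal or a list mean in a group of 4 or 5 arrays. The signals were those of the 7 genes, and the lists were the neutrophil, macrophage, fibroblast, endothelial, epithelial and receptor lists. The pancreas and smooth muscle lists were not searched. Csf3 was 12.11 on VC- day 7 replicate 2, with the nearest array at 2.90. The mean of the colonic epithelial markers was -2.62 on the same array, with the nearest at 0.07. Cxcl1 was 3.78 on VC+ day 2 replicate 2, with the nearest at 3.61, and the mean of the neutrophil markers was -0.67 on that array, with the nearest at -0.94. No response at day 2 or day 7 differed between the genotypes past the threshold.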

How the results depend on the processing

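The rises of Cxcl1, Cxcl2 and Cxcl5 at day 7 against day 0 passed the test in both genotypes without the filter, on all probe sets, with the probe set of highest mean, after quantile normalization, with a trended prior, array weights, the replicate block or Hoxb13 as a covariate, without the 3 arrays with Prss2 signal, and without any single array. The number of the 7 genes called in VC- mice at day 7 against day 0 was 3, and became 0 with only the groups compared, 5 with array weights, 1 on arrays without Xist signal and 3 to 5 with an array left out. Against day 2 the VC- number was 3, and became 0 with only the groups compared, 0 on arrays without Xist signal and 2 to 5 with an array left out. In VC+ mice it was 3 against day 0 (0 on arrays without Xist signal, 4 with array weights or without the Prss2 arrays, 3 to 4 with an array left out) and 4 against day 2 (2 on arrays without Xist signal, 3 without the filter, on all probe sets or with Hoxb13 as a covariate, 3 to 4 with an array left out). Array weights gave 4 in VC- mice against day 2. Between VC+ and VC- mice at day 7 it was 0, and 2 with array weights (0 to 1 with an array left out), and for the interaction at day 7 it was 0, and 1 with array weights (Csf1, -1.29, adjusted p = 0.048, limma). In the comparisons of days 0 and 2 the number was 0 throughout. Fewer arrays were fitted where groups or Xist arrays were left out, and the cause of the other changes was not tested. With the replicate block the calls of the 7 genes did not change, with Cxcl1 at 6.23 in VC- mice (adjusted p = 0.00358, limma), while the number of genes called over all genes went from 963 to 370 in VC- and from 159 to 75 in VC+ mice against day 0. Over the other settings, single arrays left out not counted, that number ran from 3 (only the groups compared) to 2223 (array weights) in VC- mice. In VC+ mice it ran from 2 (arrays without Xist signal) to 1509 (array weights). With array weights the genotype difference at day 7 went from 0 to 1592 genes and the interaction from 0 to 792. With an array left out the number ran from 127 to 2599 in VC- and from 53 to 353 in VC+ mice against day 0. For the genotype difference at day 7 it then ran from 0 to 1213. Of 825 values of single genes under other settings 798 stayed on their side of the threshold, 19 lost a call, 8 gained one, and 0 of those called changed sign. The low signals of the chemokines, Csf2 and Csf3 at days 0 and 2 limit how far the size of their fold changes can be read.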
